A study of Mus musculus with 12 samples.

Results

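The genes described here are 41 mouse genes of cholesterol and fatty acid synthesis, of their control by the sterol regulatory element binding proteins (SREBP) and the liver X receptors (LXR), and of sterol transport and uptake. They were listed by symbol for their known roles and not by a cut on measured values, but with earlier results of these data known. Of the 41, 40 matched a probe and were tested, among 13283 genes tested in all, and Acat2 (cytosolic acetoacetyl-CoA thiolase) matched no probe. The 40 are 6 genes of the mevalonate steps, 11 of the steps from squalene to cholesterol, 5 that control SREBP, 7 LXR receptors and targets, 5 of fatty acid synthesis, and 6 of sterol handling and uptake. Each was read from its brightest probe on one-colour Agilent arrays, and 39 were well above background on all 12 arrays. Dhcr7 was so on 7 of 12 arrays and entered the tests through its PBS groups.

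The cells were macrophages taken from the abdominal cavity of C57/BL6 mice, either wild type (WT) or GPR15 knockout (KO). GPR15 is a G protein-coupled receptor. The cells were cultured in DMEM with serum and received PBS or LPS (100 ng/ml), the endotoxin of Gram-negative bacteria, which macrophages sense through a Toll-like receptor, for 4 h. WT PBS, WT LPS, KO PBS and KO LPS each held 3 arrays. All 4 groups share the strain, the tissue, the medium and the treatment time. The ages of the mice, the make-up of the KO allele, and whether replicates came from separate mice or cultures are not given in the sources used here, so the spread behind the p-values may be only technical.

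Animal cells build cholesterol from acetyl-CoA through mevalonate and squalene. When sterols are scarce, SCAP escorts SREBP from the endoplasmic reticulum to the Golgi, where it is cut to release a factor that switches on these enzymes, and INSIG proteins hold SCAP back when sterols are plentiful. LXR are nuclear receptors that sense oxidised sterols and switch on cholesterol export and, through Srebf1, fatty acid synthesis. Macrophages depend on both systems to handle the lipid they take up, and activated macrophages make hydroxylated sterols with Ch25h.

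On each array 48.8% to 57.1% of the non-control spots were well above background and 0 were saturated. Across genes, which are not independent of each other, arrays of the same group correlated at 0.990 to 0.998. Slide 1 carried the 6 WT arrays together with KO PBS replicates 1 and 2, and slide 2 carried the remaining KO arrays, namely KO PBS replicate 3 and the 3 KO LPS arrays. The Gpr15 probe was too dim on all 12 arrays (0 well above background) to check the KO label. Xist passed background on all 6 WT and 0 KO arrays, and Ddx3y, Kdm5d and Uty on 0 WT and all 6 KO arrays, so the genotypes also differ in these sex-linked genes and genotype and sex cannot be told apart. The 12 macrophage markers were well above background on all 12 arrays.

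In the values below, a level is the log2 signal of a gene's probe minus the log2 of that array's 75th percentile, so 0 is the 75th percentile. A change is a difference between group means of such levels, with its standard error from a limma fit over all 12 arrays (n = 3 a group). A gene is said to have risen or fallen where its p, adjusted by the Benjamini-Hochberg method over the 13283 genes, was below 0.05. Levels of different genes come from different probes and are not compared.

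LPS lowered many of these genes in both genotypes and raised a few, among them Ch25h and Fasn. In WT cells 22 of 40 fell (55.0%) and 7 rose (17.5%), beside 31.0% and 33.7% of all tested genes. In KO cells 23 of 40 fell (57.5%) and 6 rose (15.0%), beside 32.0% and 35.1% of all genes. In both genotypes the share that fell was thus larger, and the share that rose smaller, than over all genes. The median change of the 40 genes was -0.29 in WT and -0.34 in KO cells, where the median of all tested genes was 0.03 and 0.04. Counting genes by both responses, 21 fell in both genotypes, 5 rose in both, 0 moved in opposite directions and 8 passed in neither. The LPS arrays of a gene all lay on one side of its PBS arrays for 27 of 40 genes in WT (67.5%) and 31 of 40 in KO cells (77.5%), shares close to the 69.4% and 72.1% of all tested genes. Without Dhcr7, 21 of 39 fell in WT and 22 of 39 in KO cells. With arrays scaled over probes above background on all of them, the median change of all genes in WT cells was -0.09, and 26.2% rose and 38.5% fell. Under that scaling 5 of the 40 genes rose and 26 fell in WT cells, with a median change of -0.41.

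The marker signal of cells other than macrophages also differed between LPS and PBS arrays. The summed level of the 10 B-cell markers, in multiples of an array's 75th percentile, was 155 to 195 in WT PBS and 85.9 to 101 in WT LPS, 129 to 134 in KO PBS and 72.8 to 73.5 in KO LPS, with all 10 markers well above background on all 12 arrays. Of the 10, 6 fell and 0 rose in WT cells, and 7 fell and 1 rose in KO cells. Beside the marker counts here and below, 31.0% of all tested genes fell and 33.7% rose in WT cells. The shares of all tested genes in KO cells were 32.0% and 35.1%. The 8 mast-cell markers summed to 111 to 150, 241 to 263, 99.1 to 116 and 188 to 205 in the same order, but their genes went different ways: 3 rose and 2 fell in WT cells and 3 rose and 1 fell in KO cells, Hdc, the histidine decarboxylase, rose by 1.54 ± 0.11 and 1.44 ± 0.11, and Kit changed by -0.36 ± 0.13 and -0.31 ± 0.13. The T-cell markers summed to 19.9 to 25.6, 11 to 12.1, 17.9 to 19.4 and 10.1 to 11.5, and of the 8 tested 5 fell and 0 rose in WT cells, and 2 fell and 1 rose in KO cells. Cd2 fell in both, at -1.86 ± 0.12 and -1.95 ± 0.12. The defining fat-cell genes Adipoq, Plin1 and Cidec and the mesothelial gene Upk3b were well above background on 0 arrays. Of the 8 fat-cell markers 6 were so on 0 arrays, but Lep and Retn on all 12. Among the 9 markers of mesothelium and fibroblasts 6 were so on 0 arrays, but Dcn on all 12. Of the 8 neutrophil markers on the array, Ltf, Ngp and Cxcr2 were so on 0 arrays and 2 on all 12, and the 8 summed to 2.16 to 2.25 in WT PBS, 1.53 to 1.61 in WT LPS, 2.42 to 3.91 in KO PBS and 2.52 to 2.76 in KO LPS. In bulk RNA fewer cells of a type and less RNA per cell cannot be told apart, and the part of these other cells in the changes below was not tested. The macrophage markers summed to 702 to 772 in WT PBS and 717 to 788 in WT LPS, and to 730 to 808 and 728 to 753 in KO cells. Of these 12 markers 7 fell in each genotype (58.3%), and 3 rose in WT and 2 in KO cells. Csf1r fell by 1.28 ± 0.10 and 1.13 ± 0.10, while Cd14 rose by 0.48 ± 0.09 and 0.48 ± 0.09. The largest rise in WT cells was that of Fcgr1, at 2.42. Cd14 had the highest signal of the 12 and weighs most in the sum, so a steady sum does not mean steady markers.

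**Figure D1:**
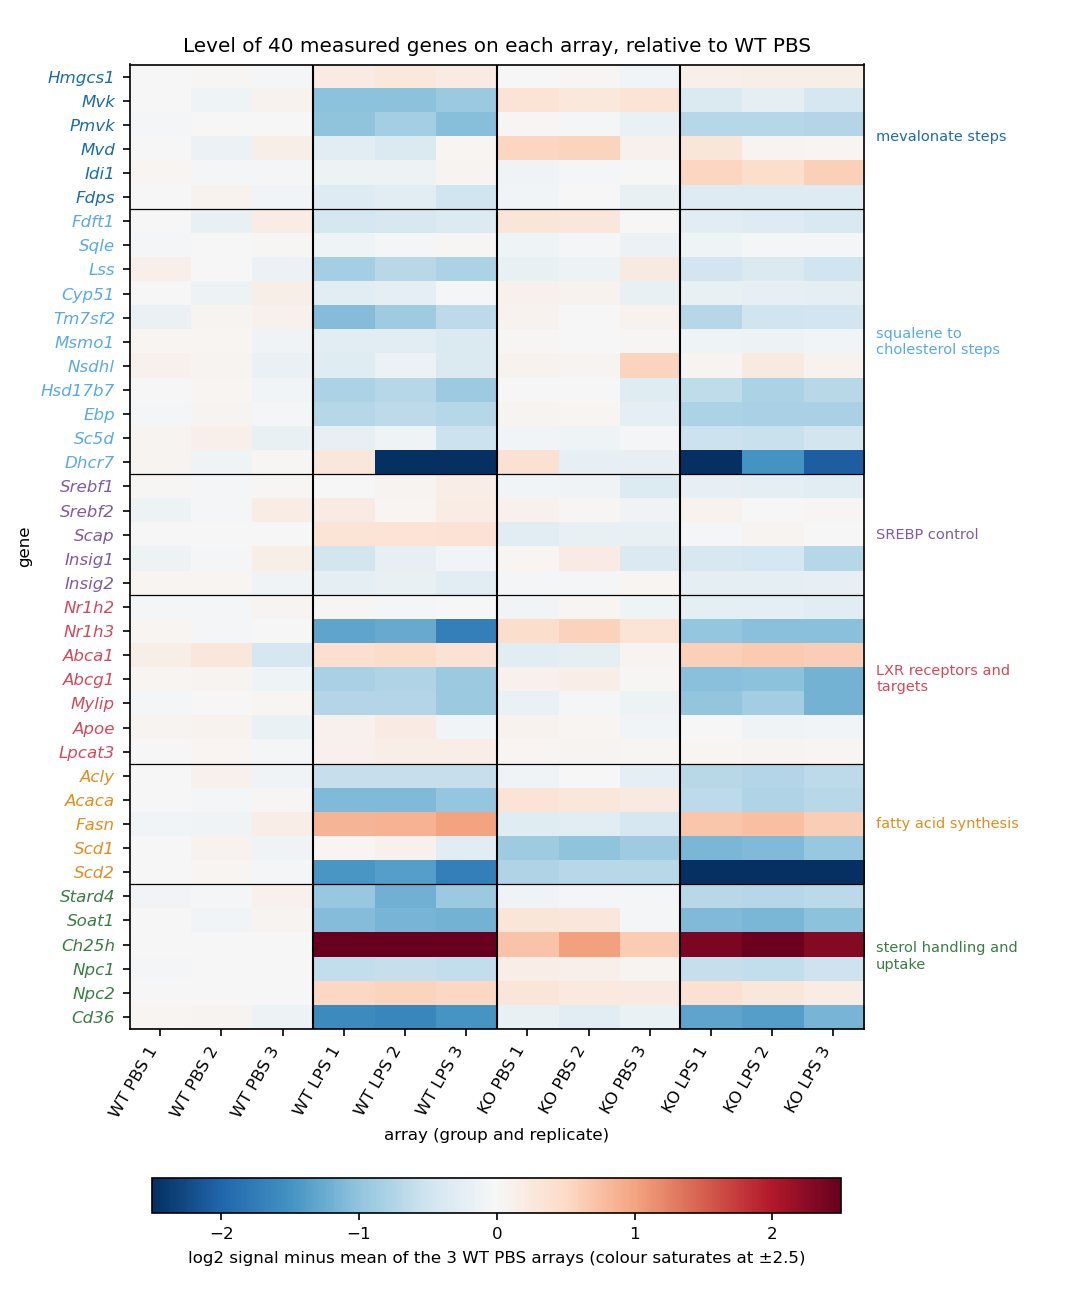
Level of each of the 40 measured genes (rows, grouped by role) on each of the 12 arrays (columns), as log2 signal minus the mean of the 3 WT PBS arrays, blue for lower and red for higher, with colours saturating at 2.5 either way. Ch25h is deep red on the LPS arrays of both genotypes, Nr1h3, Cd36, Acaca, Soat1 and Scd2 are blue there, and Scd1 is blue on all 6 KO arrays.

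**Figure D2:**
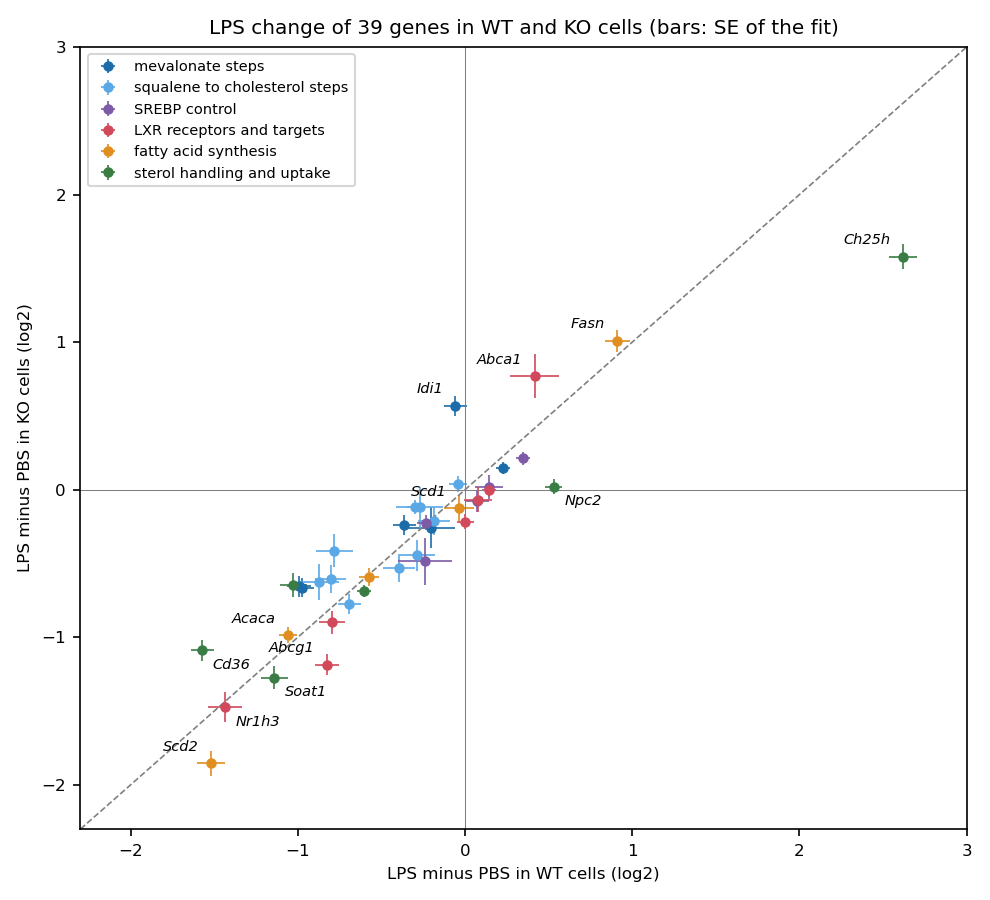
LPS minus PBS change (log2) in WT cells (horizontal) and KO cells (vertical) for the 39 genes well above background on all arrays, coloured by role, with bars for the standard error and a dashed line where both changes are equal. Most genes lie near the line at the lower left, while Idi1 and Cd36 lie above the line and Ch25h and Npc2 below it.

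Promoter sequences of 4 of these genes are shown first, because the genes went different ways: Hmgcs1 rose slightly with LPS, Mvk fell, Idi1 rose in KO cells, and Fasn rose in both genotypes. Each is the 250 bases before the start site (RefSeq, GRCm38.p6), read 5′ to 3′ on the gene's strand, and capitals mark CCAAT, its reverse complement ATTGG, or in Hmgcs1 the sterol regulatory element.
Hmgcs1 (chr13:119690101-119690350, plus strand): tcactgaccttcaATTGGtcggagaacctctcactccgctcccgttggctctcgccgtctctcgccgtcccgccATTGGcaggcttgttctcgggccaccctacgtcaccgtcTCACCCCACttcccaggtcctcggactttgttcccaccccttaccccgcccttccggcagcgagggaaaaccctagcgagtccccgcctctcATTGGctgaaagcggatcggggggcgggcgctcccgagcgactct
Mvk (chr5:114444019-114444268, plus strand): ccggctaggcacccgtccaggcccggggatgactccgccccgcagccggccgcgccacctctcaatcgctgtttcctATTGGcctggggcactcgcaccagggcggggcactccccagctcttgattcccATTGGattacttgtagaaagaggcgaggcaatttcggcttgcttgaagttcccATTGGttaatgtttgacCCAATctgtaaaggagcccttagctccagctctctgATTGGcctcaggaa
Idi1 (chr13:8885356-8885605, plus strand): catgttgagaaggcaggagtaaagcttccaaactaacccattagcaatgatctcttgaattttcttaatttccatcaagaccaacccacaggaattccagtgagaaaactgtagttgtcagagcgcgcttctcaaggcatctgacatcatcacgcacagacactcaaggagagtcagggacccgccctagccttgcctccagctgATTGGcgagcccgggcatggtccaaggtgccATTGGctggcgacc
Fasn (chr11:120824548-120824797, minus strand): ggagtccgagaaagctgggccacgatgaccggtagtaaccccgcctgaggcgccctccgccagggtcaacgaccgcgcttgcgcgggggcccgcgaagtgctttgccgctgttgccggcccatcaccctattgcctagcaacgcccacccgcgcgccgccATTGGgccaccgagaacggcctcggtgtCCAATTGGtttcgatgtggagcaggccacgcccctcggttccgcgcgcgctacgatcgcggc
CCAAT on either strand, the box that the factor NF-Y binds, was in the promoters of 24 of the 33 listed genes found in the table (72.7%), beside 37.5% of all 27025 genes with a promoter there. It was present in 14 of the 15 sterol synthesis genes found, in 4 of 5 SREBP control genes, 2 of 6 LXR genes, 1 of 3 fatty acid genes (Fasn) and 3 of 4 handling genes. The Mvk promoter holds it 5 times, those of Hmgcs1 and Fasn 3 times and that of Idi1 2 times. The sterol regulatory element TCACNCCAC was in 1 of 33 (3.03%, Hmgcs1), beside 1.22% of all genes, and starts 137 bases before the start site. Its core CACCCCAC, which overlaps it there, was in 2 of 33 (6.06%, Acat2 and Hmgcs1), beside 2.98% of all genes. The LXR element made of AGGTCA or GGGTCA followed by AGGTCA with 4 bases between was in 0 of 33 and in 0.0148% and 0.0074% of all genes. These matches describe letters in this window, and a missing match says nothing about the factor.

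Among the 6 measured genes of the mevalonate steps, 3 fell and 1 rose in WT cells, and 3 fell and 2 rose in KO cells. The kinases fell in both genotypes while the synthase at the head of the pathway rose slightly. Mvk encodes mevalonate kinase, which adds the first phosphate to mevalonate. Its level was 0.34, 0.22 and 0.41 on the WT PBS arrays, -0.70, -0.70 and -0.61 on the WT LPS arrays, 0.67, 0.58 and 0.67 on the KO PBS arrays and -0.03, 0.09 and -0.09 on the KO LPS arrays. Every LPS array lay below every PBS array of its genotype, and every KO array lay above the WT arrays given the same treatment. Mvk fell by 0.99 ± 0.07 in WT cells (adjusted p = 1.3e-07) and by 0.66 ± 0.07 in KO cells (adjusted p = 5.33e-06).

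Pmvk, the next kinase of the pathway, fell as well. Its level was 1.39, 1.44 and 1.44 on the WT PBS arrays, 0.41, 0.58 and 0.36 on the WT LPS arrays, 1.46, 1.39 and 1.25 on the KO PBS arrays and 0.71, 0.71 and 0.68 on the KO LPS arrays. The LPS arrays of both genotypes lay below all PBS arrays, and those of WT cells were the lowest. Pmvk fell by 0.97 ± 0.07 in WT cells (adjusted p = 1.15e-07) and by 0.66 ± 0.07 in KO cells (adjusted p = 3.58e-06). Fdps, which joins isoprenoid units into farnesyl diphosphate, fell by 0.36 ± 0.07 and 0.24 ± 0.07, and the KO fall was -0.14 (adjusted p = 0.202) against the single KO PBS array on the slide of the KO LPS arrays. Mvd, the decarboxylase, changed by -0.20 ± 0.14 in WT cells, with adjusted p = 0.23, or 0.0291 with the replicate number as a block.

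Idi1 encodes the isomerase that interconverts the isoprenoid building blocks. Its level was 0.34, 0.27 and 0.26 on the WT PBS arrays, 0.16, 0.17 and 0.37 on the WT LPS arrays, 0.21, 0.24 and 0.30 on the KO PBS arrays and 0.83, 0.73 and 0.89 on the KO LPS arrays. The KO LPS arrays were the highest of the 12, whereas the other 9 overlapped. Idi1 rose by 0.57 ± 0.07 in KO cells (adjusted p = 1.32e-05), and its change in WT cells was -0.06 ± 0.07 (adjusted p = 0.474). Hmgcs1 encodes the synthase that makes HMG-CoA, the precursor of mevalonate. Hmgcs1, described after its values were seen, lay at 2.46, 2.48 and 2.41 in WT PBS, 2.66, 2.72 and 2.66 in WT LPS, 2.47, 2.48 and 2.37 in KO PBS and 2.58, 2.59 and 2.59 in KO LPS, with small spread in each group. It rose by 0.23 ± 0.04 in WT cells (adjusted p = 0.000609) and by 0.15 ± 0.04 in KO cells (adjusted p = 0.0104). Quantile normalization gave 0.11 and 0.06, and scaling over probes above background on all arrays 0.11 and 0.07, and the KO call was lost under both (adjusted p = 0.194 and 0.132).

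From squalene to cholesterol, 8 of 11 genes fell in WT cells, 7 of 11 fell in KO cells and 0 rose in either. Dhcr7, which entered the tests through its PBS groups, is counted among the falls in both. The median change was -0.40 in WT and -0.45 in KO cells. Ebp, the sterol isomerase, and Hsd17b7, a sterol ketone reductase, were among the clearest. Hsd17b7 lay at 0.15, 0.18 and 0.06 on the WT PBS arrays, -0.66, -0.58 and -0.78 on the WT LPS arrays, 0.14, 0.12 and -0.18 on the KO PBS arrays and -0.50, -0.67 and -0.57 on the KO LPS arrays. All LPS arrays lay below all PBS arrays. Hsd17b7 fell by 0.80 ± 0.09 in WT cells (adjusted p = 9.1e-06) and by 0.61 ± 0.09 in KO cells (adjusted p = 0.000108), and Ebp fell by 0.69 ± 0.07 and 0.77 ± 0.07. Against the KO PBS array on the slide of the KO LPS arrays, Hsd17b7 was at -0.40 (adjusted p = 0.00469).

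Tm7sf2, a sterol reductase, had the largest WT fall of this group among genes above background throughout. Its level was -1.69, -1.46 and -1.42 on the WT PBS arrays, -2.60, -2.41 and -2.18 on the WT LPS arrays, -1.43, -1.51 and -1.44 on the KO PBS arrays and -2.24, -2.01 and -2.0 on the KO LPS arrays. The LPS arrays again lay below all PBS arrays. The fall was -0.87 ± 0.12 in WT cells (adjusted p = 4.9e-05) and -0.62 ± 0.12 in KO cells (adjusted p = 0.000736), but the second kept probe of Tm7sf2 changed by -0.06 in WT cells and was called in neither genotype (adjusted p = 0.888 and 0.162). With normexp background correction the falls were -0.54 and -0.39, both called. Lss, the lanosterol synthase, fell by 0.78 ± 0.11 and 0.41 ± 0.11, and Fdft1, the squalene synthase, by 0.40 ± 0.10 and 0.53 ± 0.10. In KO cells Lss was at -0.93 on its second probe and -0.67 against the KO PBS array on the same slide, and Fdft1 was at -0.67 on its second probe in WT cells and -0.34 on that slide in KO cells, all called. Sc5d, a sterol desaturase, fell by 0.29 ± 0.10 in WT cells, where its LPS and PBS arrays overlapped, and by 0.45 ± 0.10 in KO cells. The WT call of Sc5d was lost without WT PBS replicate 1 (-0.25, adjusted p = 0.0966), WT PBS replicate 2 (-0.22, 0.112) or WT LPS replicate 3 (-0.16, 0.127).

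Dhcr7 encodes the reductase of the last step to cholesterol and had the faintest probe. It lay at -3.36, -3.54 and -3.41 on the WT PBS arrays, -3.15, -6.04 and -5.98 on the WT LPS arrays, -3.06, -3.65 and -3.65 on the KO PBS arrays and -6.23, -4.93 and -5.49 on the KO LPS arrays. It was well above background on the 6 PBS arrays and on WT LPS replicate 1, and on no other LPS array. Dhcr7 entered the tests only through its PBS groups, where it is high, so its p-values below give no separate support. In KO cells it was at least 1.98-fold lower after LPS (adjusted p = 0.012), a call that was lost without KO LPS replicate 1 (adjusted p = 0.0511) and against the KO PBS array on the same slide (0.117). In WT cells, where 1 of the 3 LPS arrays measured it, the fitted difference was -1.62 ± 0.64 (adjusted p = 0.0414), and it rests on signals that were not well above background. It was -0.30 (adjusted p = 0.149) with normexp background correction, which moved it most of the alternatives tried. It was -1.13 (adjusted p = 0.165) without WT LPS replicate 2, -1.16 without replicate 3 and -2.57 (adjusted p = 0.000105) without replicate 1. The WT call was also lost without any 1 of the 3 WT PBS arrays, the 3 KO PBS arrays or KO LPS replicate 3, at values from -1.67 to -1.58.

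The remaining genes of this group changed less. Msmo1, a methylsterol oxidase, fell by 0.30 ± 0.05 in WT cells, where its second probe gave -0.03, and changed by -0.12 ± 0.05 in KO cells (adjusted p = 0.0535). Sqle, the squalene epoxidase that catalyses a rate-limiting step, changed by -0.04 ± 0.05 in WT and 0.04 ± 0.05 in KO cells, with adjusted p = 0.527 and 0.537. Cyp51, the lanosterol demethylase, changed by -0.18 ± 0.10 in WT cells (adjusted p = 0.113, or 0.0269 with the replicate block) and by -0.21 ± 0.10 in KO cells (adjusted p = 0.0691, or 0.047 with the block). Nsdhl, a sterol dehydrogenase, changed by -0.27 ± 0.14 and -0.12 ± 0.14, neither past the threshold.

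Among the 5 genes that control SREBP, 1 rose and 1 fell in WT cells, and 1 rose and 2 fell in KO cells. The factors themselves, Srebf1 and Srebf2, did not pass in either genotype: Srebf1 changed by 0.07 ± 0.07 and -0.08 ± 0.07, and Srebf2 by 0.14 ± 0.08 and 0.02 ± 0.08. The array measures their RNA and not the cutting of the protein. Scap, the escort of SREBP, lay at 2.81, 2.82 and 2.83 on the WT PBS arrays, 3.15, 3.17 and 3.18 on the WT LPS arrays, 2.56, 2.64 and 2.63 on the KO PBS arrays and 2.77, 2.90 and 2.81 on the KO LPS arrays. The LPS arrays lay above the PBS arrays of the same genotype, and the KO arrays below the WT arrays of the same treatment. Scap rose by 0.35 ± 0.04 in WT cells (adjusted p = 2.48e-05) and by 0.21 ± 0.04 in KO cells (adjusted p = 0.0012), or by 0.18 and 0.12 after quantile normalization, both called.

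Of the INSIG genes, whose proteins retain SCAP, Insig2 fell in both genotypes and Insig1 in KO cells. Insig2 lay at 1.26, 1.26 and 1.13 on the WT PBS arrays, 0.99, 1.03 and 0.92 on the WT LPS arrays, 1.18, 1.19 and 1.26 on the KO PBS arrays and 0.98, 0.98 and 1.01 on the KO LPS arrays. The LPS arrays of Insig2 lay below its PBS arrays in both genotypes. It fell by 0.23 ± 0.05 in WT cells (adjusted p = 0.00197) and by 0.22 ± 0.05 in KO cells (adjusted p = 0.00274), and its WT change was -0.35 with scaling over probes above background on all arrays. Insig1, itself a known SREBP target, lay at -1.85, -1.76 and -1.58 on the WT PBS arrays, -2.19, -1.93 and -1.79 on the WT LPS arrays, -1.68, -1.52 and -2.10 on the KO PBS arrays and -2.14, -2.17 and -2.45 on the KO LPS arrays. Its WT LPS and PBS arrays overlapped, while in KO cells they did not. Insig1 fell by 0.49 ± 0.16 in KO cells (adjusted p = 0.0176), and changed by -0.24 ± 0.16 in WT cells (adjusted p = 0.209, or 0.0434 with the replicate block). The KO call was lost without KO PBS replicate 1 (-0.44), KO PBS replicate 2 (-0.36) or KO LPS replicate 3 (-0.39), and against the KO PBS array on the same slide the change was -0.16 (adjusted p = 0.497).

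Of the 7 LXR receptors and targets, 3 fell and 2 rose in WT cells, and 4 fell and 1 rose in KO cells. The receptor LXR alpha, the exporter Abcg1 and the ubiquitin ligase Mylip fell in both genotypes, and the exporter Abca1 rose in both. Nr1h3, which encodes LXR alpha, lay at 1.06, 0.97 and 1.0 on the WT PBS arrays, -0.31, -0.25 and -0.70 on the WT LPS arrays, 1.45, 1.59 and 1.36 on the KO PBS arrays and 0.05, -0.03 and -0.04 on the KO LPS arrays. The LPS arrays lay well below the PBS arrays, and in each treatment the KO arrays lay above the WT arrays. It fell by 1.44 ± 0.10 in WT cells, 2.7-fold (adjusted p = 1.75e-07), and by 1.47 ± 0.10 in KO cells, 2.77-fold (adjusted p = 1.8e-07). Nr1h2, which encodes LXR beta, changed by 0.00 ± 0.05 in WT cells and fell by 0.22 ± 0.05 in KO cells, but changed by -0.16 (adjusted p = 0.0621) within the slide of the KO LPS arrays. Its KO call was also lost on its second probe, at -0.08 (adjusted p = 0.558), and with the mean of its probes, at -0.15 (adjusted p = 0.0734), and quantile normalization gave -0.35 in KO and -0.21 in WT cells.

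Abcg1 and Abca1 both carry cholesterol out of the cell and are classic LXR targets, yet they moved in opposite directions. Abcg1 lay at 3.51, 3.52 and 3.35 on the WT PBS arrays, 2.66, 2.71 and 2.54 on the WT LPS arrays, 3.57, 3.63 and 3.48 on the KO PBS arrays and 2.42, 2.43 and 2.27 on the KO LPS arrays. All LPS arrays lay below all PBS arrays, with the KO LPS arrays lowest. Abcg1 fell by 0.83 ± 0.07 in WT cells (adjusted p = 6.25e-07) and by 1.19 ± 0.07 in KO cells (adjusted p = 3.94e-08). Abca1, described after its values were seen, lay at 4.69, 4.82 and 4.11 on the WT PBS arrays, 4.96, 5.01 and 4.91 on the WT LPS arrays, 4.25, 4.31 and 4.62 on the KO PBS arrays and 5.13, 5.20 and 5.15 on the KO LPS arrays. The LPS arrays lay above the PBS arrays in both genotypes, and WT PBS replicate 3 was the lowest of the 12. Abca1 rose by 0.42 ± 0.15 in WT cells (adjusted p = 0.0278) and by 0.77 ± 0.15 in KO cells (adjusted p = 0.000722). The WT change was 0.20 (adjusted p = 0.0773) without WT PBS replicate 3, and its call was also lost without WT LPS replicate 1 (0.42) or 2 (0.39) and after quantile normalization (0.20).

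Mylip, an LXR target that encodes a ubiquitin ligase, lay at 2.76, 2.78 and 2.85 on the WT PBS arrays, 2.06, 2.07 and 1.87 on the WT LPS arrays, 2.63, 2.74 and 2.66 on the KO PBS arrays and 1.80, 1.93 and 1.60 on the KO LPS arrays. The LPS arrays lay below the PBS arrays in both genotypes. Mylip fell by 0.80 ± 0.08 in WT cells (adjusted p = 3.06e-06) and by 0.90 ± 0.08 in KO cells (adjusted p = 1.29e-06). Apoe, the apolipoprotein that accepts exported lipid, changed by 0.08 ± 0.08 and -0.07 ± 0.08, neither past the threshold. Lpcat3, a phospholipid remodelling enzyme, rose by 0.14 ± 0.04 in WT cells (adjusted p = 0.0078), a change that was -0.02 after quantile normalization, and changed by 0.00 ± 0.04 in KO cells.

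In fatty acid synthesis, 3 of 5 genes fell, 1 rose and 1 did not pass, in WT and in KO cells. The consecutive enzymes parted: Acly, which makes cytosolic acetyl-CoA, and Acaca, which carboxylates it, fell, while Fasn, which builds the fatty acid, rose. Acaca lay at 4.42, 4.37 and 4.45 on the WT PBS arrays, 3.30, 3.30 and 3.45 on the WT LPS arrays, 4.76, 4.70 and 4.63 on the KO PBS arrays and 3.77, 3.66 and 3.71 on the KO LPS arrays. All LPS arrays lay below all PBS arrays, and in each treatment the KO arrays lay above the WT arrays. Acaca fell by 1.06 ± 0.05 in WT cells, 2.08-fold (adjusted p = 1.02e-08), and by 0.98 ± 0.05 in KO cells, 1.98-fold (adjusted p = 2.37e-08), and Acly fell by 0.58 ± 0.06 and 0.59 ± 0.06.

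Fasn, whose promoter is shown above with its CCAAT boxes, lay at 3.46, 3.45 and 3.69 on the WT PBS arrays, 4.38, 4.40 and 4.55 on the WT LPS arrays, 3.24, 3.26 and 3.12 on the KO PBS arrays and 4.23, 4.28 and 4.14 on the KO LPS arrays. Every LPS array lay above every PBS array. Fasn rose by 0.91 ± 0.07 in WT cells, 1.88-fold (adjusted p = 4.91e-07), and by 1.01 ± 0.07 in KO cells, 2.01-fold (adjusted p = 2.57e-07).

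The stearoyl-CoA desaturases, which introduce a double bond into newly made fatty acids, responded unlike each other to LPS. Scd2 lay at 0.67, 0.72 and 0.62 on the WT PBS arrays, -0.78, -0.71 and -1.05 on the WT LPS arrays, -0.08, -0.02 and -0.02 on the KO PBS arrays and -1.92, -1.94 and -1.82 on the KO LPS arrays. The groups formed a ladder with no overlap, from WT PBS down through KO PBS and WT LPS to KO LPS. Scd2 fell by 1.52 ± 0.08 in WT cells, 2.86-fold (adjusted p = 2e-08), and by 1.85 ± 0.08 in KO cells, 3.61-fold (adjusted p = 5.83e-09). Scd1, described after its values were seen, lay at 3.18, 3.24 and 3.07 on the WT PBS arrays, 3.20, 3.27 and 2.90 on the WT LPS arrays, 2.27, 2.15 and 2.27 on the KO PBS arrays and 2.03, 2.06 and 2.22 on the KO LPS arrays. The LPS and PBS arrays of a genotype overlapped, and all KO arrays lay below all WT arrays. Its LPS change was -0.04 ± 0.09 in WT cells (adjusted p = 0.742) and -0.12 ± 0.09 in KO cells (adjusted p = 0.236).

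Among the 6 genes of sterol handling and uptake, 4 fell and 2 rose in WT cells, and 4 fell and 1 rose in KO cells. Ch25h, which makes a hydroxylated cholesterol that holds back SREBP and activates LXR, had the largest change of all 40 genes in WT cells. Its level was 3.30, 3.33 and 3.31 on the WT PBS arrays, 5.94, 6.0 and 5.87 on the WT LPS arrays, 4.03, 4.34 and 3.96 on the KO PBS arrays and 5.68, 5.77 and 5.62 on the KO LPS arrays. The LPS arrays lay far above the PBS arrays, and the KO PBS arrays lay between those of WT PBS and all LPS arrays. Ch25h rose 6.15-fold in WT cells, by 2.62 ± 0.08 on the log2 scale (adjusted p = 4.96e-10), and 2.99-fold in KO cells, by 1.58 ± 0.08 (adjusted p = 2.06e-08).

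Cd36, a scavenger receptor for oxidised lipoproteins and fatty acids, lay at 4.23, 4.26 and 4.06 on the WT PBS arrays, 2.59, 2.56 and 2.70 on the WT LPS arrays, 4.0, 3.93 and 4.02 on the KO PBS arrays and 2.86, 2.80 and 3.02 on the KO LPS arrays. All LPS arrays lay below all PBS arrays by a wide gap. Cd36 fell by 1.57 ± 0.07 in WT cells, 2.97-fold (adjusted p = 3.91e-09), and by 1.09 ± 0.07 in KO cells, 2.13-fold (adjusted p = 8.59e-08). Soat1, which esterifies cholesterol for storage, lay at 2.97, 2.91 and 3.03 on the WT PBS arrays, 1.88, 1.81 and 1.79 on the WT LPS arrays, 3.27, 3.25 and 2.93 on the KO PBS arrays and 1.86, 1.84 and 1.93 on the KO LPS arrays. Its LPS arrays lay below its PBS arrays by a wide gap in both genotypes. Soat1 fell by 1.14 ± 0.08 in WT cells (adjusted p = 1.4e-07) and by 1.27 ± 0.08 in KO cells (adjusted p = 7.35e-08).

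NPC1 and NPC2 hand cholesterol out of the lysosome together, and their genes differed in their response. Npc2 lay at 4.72, 4.73 and 4.72 on the WT PBS arrays, 5.24, 5.29 and 5.24 on the WT LPS arrays, 5.03, 4.97 and 4.96 on the KO PBS arrays and 5.10, 5.01 and 4.91 on the KO LPS arrays. In WT cells the LPS arrays lay above the PBS arrays, while in KO cells they overlapped. Npc2 rose by 0.53 ± 0.05 in WT cells (adjusted p = 1.66e-06) and changed by 0.02 ± 0.05 in KO cells (adjusted p = 0.719), or 0.30 and -0.15 after quantile normalization. Npc1 fell by 0.61 ± 0.04 in WT cells and by 0.68 ± 0.04 in KO cells. Stard4, a soluble sterol carrier, fell by 1.03 ± 0.08 in WT cells, where its second probe gave -0.47, and by 0.65 ± 0.08 in KO cells, where that probe gave -0.30, and it was called in neither genotype (adjusted p = 0.16 and 0.358).

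The interaction asked whether the response to LPS differed between KO and WT cells, as the change in KO cells minus that in WT cells. It was past the threshold for 2 of 40 genes upward (5.0%) and 2 downward (5.0%), beside 0.926% and 3.39% of all tested genes. With arrays scaled over probes above background on all of them, 208 of all genes were called upward and 382 downward, against 123 and 450. Ch25h had an interaction of -1.04 ± 0.12 (adjusted p = 0.000268), its rise being smaller in KO cells, where it was higher in PBS. Npc2 had an interaction of -0.51 ± 0.07 (adjusted p = 0.00105), and Idi1 one of 0.63 ± 0.09 (adjusted p = 0.00208). With slide as a term these were -0.89, -0.48 and 0.58, with adjusted p = 0.00301, 0.0093 and 0.0186.

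Cd36 fell less in KO cells, with an interaction of 0.48 ± 0.10 (adjusted p = 0.0159). Its call was lost with slide as a term (0.45, adjusted p = 0.0991), with normexp background correction (0.39, 0.056), without WT PBS replicate 1 (0.46, 0.0547) and without WT LPS replicate 1 (0.47, 0.0503). Without either array 1 gene was called upward, while with slide or normexp 2 were, since Pmvk gained a call (0.42 with slide, adjusted p = 0.0427). The KO PBS array on the second slide mattered for the counts: without KO PBS replicate 3, 5 genes were called upward and 7 downward, with Mvk (0.35), Lss (0.49) and Stard4 (0.39) added upward and Abcg1 (-0.40), Ebp, Nr1h2, Soat1 and Srebf1 downward. Without WT LPS replicate 3, 4 genes were called downward, with Abcg1 (-0.41) and Scd2 (-0.44) added.

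**Figure D3:**
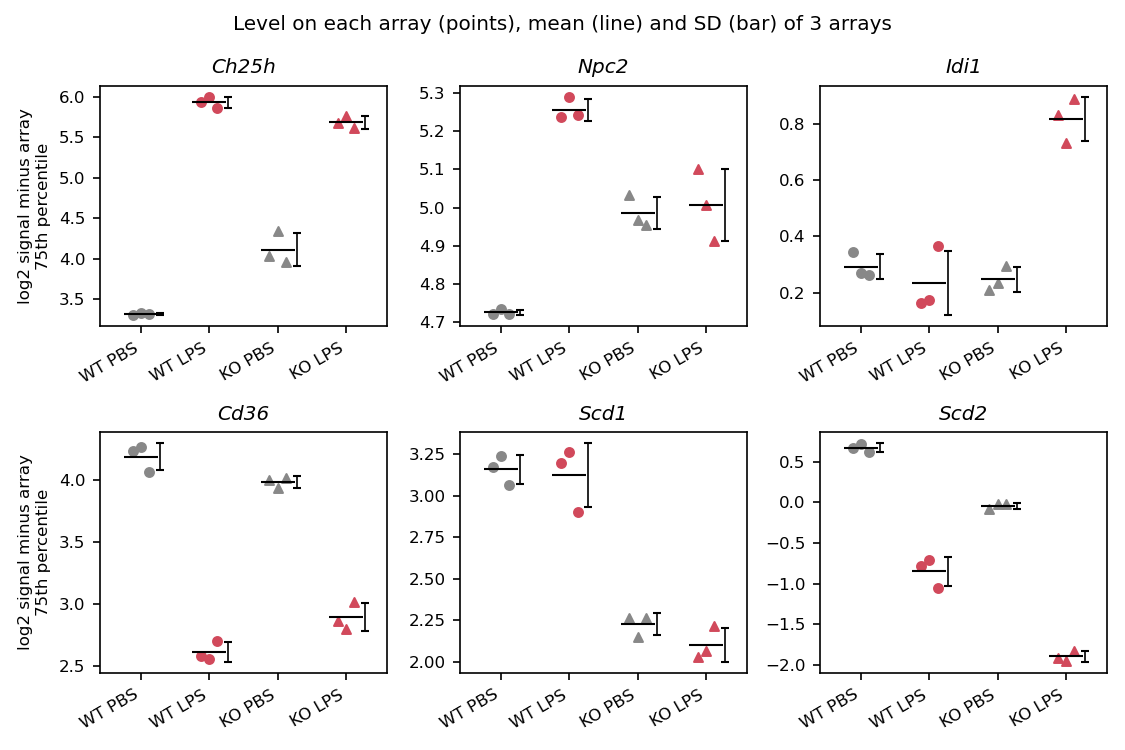
Level (log2 signal minus the array's 75th percentile) of Ch25h, Npc2, Idi1, Cd36, Scd1 and Scd2 on each array, with circles for WT, triangles for KO, grey for PBS and red for LPS, a line for the mean and a bar for the SD of 3 arrays; each panel has its own vertical scale. Idi1 is high on the KO LPS arrays only, Npc2 is lowest on the WT PBS arrays, and Scd1 parts by genotype and not by LPS.

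In PBS, KO and WT cells differed in a few of these genes. Of 40, 5 were higher (12.5%) and 4 lower (10.0%) in KO cells, beside 8.06% and 6.05% of all tested genes. The largest differences were those of the desaturases and of Ch25h. Scd1 was lower in KO cells by 1.91-fold, -0.93 ± 0.09 on the log2 scale (adjusted p = 9.24e-05), and Scd2 by 1.64-fold, -0.71 ± 0.08 (adjusted p = 0.000328). Ch25h was 1.73-fold higher, by 0.79 ± 0.08 (adjusted p = 0.000187). Within slide 1, which holds all WT PBS arrays and KO PBS replicates 1 and 2, these differences were -0.95, -0.72 and 0.87.

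The other differences in PBS were smaller. Nr1h3 was higher by 0.45 ± 0.10 (adjusted p = 0.0146), and at 0.43 (adjusted p = 0.0525) without WT PBS replicate 2 and 0.39 (0.0539) without KO PBS replicate 2 it no longer passed. Mvk, Acaca and Npc2 were higher by 0.32 ± 0.07, 0.29 ± 0.05 and 0.26 ± 0.05, and Fasn and Scap lower at -0.33 ± 0.07 and -0.21 ± 0.04. On their second kept probes Mvk and Acaca were at 0.05 and 0.34 and no longer passed. Within slide 1 Mvk, Fasn and Scap were at 0.31, -0.28 and -0.22 and did not pass (adjusted p = 0.0777, 0.108 and 0.0561). With only the groups compared they did not pass either (adjusted p = 0.0511, 0.0606 and 0.0605). For 14 of the 40 genes (35%) the 3 KO arrays all lay on one side of the 3 WT arrays, beside 30.5% of all tested genes. Without KO PBS replicate 3, which sat on the other slide, 8 genes were higher, with Mvd (0.55, adjusted p = 0.019), Npc1 (0.14) and Soat1 (0.29) added. Of the B-cell markers 5 of 10 were lower in KO cells in PBS, and of the T-cell markers 4 of 8, with 0 higher. Of the mast-cell markers 1 of 8 was lower, and of the macrophage markers 3 of 12 were higher. The part of other cells in these differences was not tested.

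After LPS, 10 of 40 genes stood higher (25%) and 10 stood lower (25%) in KO than in WT cells, beside 20.0% and 19.5% of all tested genes. The WT LPS arrays lay on slide 1 and the KO LPS arrays on slide 2. With slide as a term, which only KO PBS replicate 3 against KO PBS replicates 1 and 2 can inform, KO cells had 5 genes higher and 3 lower. Those 5 were Mvk (0.66 ± 0.07, or 0.62 with slide), Idi1 (0.58 ± 0.07, 0.51), Pmvk (0.25 ± 0.07, 0.43), Acaca (0.36 ± 0.05, 0.46) and Soat1 (0.05 ± 0.08, not called, 0.38). The 3 lower genes were Scd1 at -1.02 ± 0.09 (2.03-fold; -1.08 with slide, adjusted p = 0.00687), Scd2 at -1.05 ± 0.08 (2.07-fold; -1.08, 0.00431) and Scap at -0.35 ± 0.04 (-0.37, 0.0187). With the mean of its kept probes Acaca was at 0.34 (adjusted p = 0.0675). The second kept probes of Mvk and Pmvk gave 0.48 (adjusted p = 0.22) and 0.15 (0.125), in the same direction but not called. That of Soat1, without slide as a term, went the other way, at -0.41, and was called lower (adjusted p = 0.0106).

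After LPS 3 of 6 mevalonate genes (50%) and 3 of 11 genes of steps after squalene (27.3%) were higher in KO cells, and 0 were lower. Over all tested genes 20% were higher and 19.5% lower, so the 27.3% is near the share of all genes. Beside Mvk, Idi1 and Pmvk the higher genes of these groups were Lss (0.33 ± 0.11, adjusted p = 0.0322), Nsdhl (0.40 ± 0.14, 0.0425) and Msmo1 (0.20 ± 0.05, 0.00867). With slide as a term the values of Lss and Nsdhl turned to -0.05 and -0.09, and the second probes of Lss and Msmo1 gave -0.34 and -0.10. Nr1h3 (0.42 ± 0.10), Stard4 (0.33 ± 0.08) and Cd36 (0.28 ± 0.07) were also higher, with 0.57, 0.32 and 0.23 and no call with slide as a term, and Nr1h3 and Stard4 gave 0.08 and 0.23 on their second probes, not called.

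The genes lower in KO cells after LPS, apart from the desaturases and Scap, were Srebf1 (-0.31 ± 0.07), Abcg1 (-0.26 ± 0.07), Nr1h2 (-0.26 ± 0.05), Npc2 (-0.25 ± 0.05), Ch25h (-0.25 ± 0.08), Fasn (-0.23 ± 0.07) and Mylip (-0.22 ± 0.08), whose groups overlapped. None of these 7 passed with slide as a term, where Ch25h was at -0.02 and Srebf1 at -0.04, and the second probe of Nr1h2 gave 0.19. Without KO LPS replicate 3, 6 genes were lower, and Abcg1 (-0.21), Ch25h (-0.21), Fasn (-0.19) and Mylip (-0.13) lost their calls, as did Lss and Nsdhl among the higher genes. Other single arrays also ended these 6 calls. Abcg1 was at -0.22 without WT LPS replicate 2. Ch25h was at -0.25 without WT PBS replicate 1, -0.25 without WT LPS replicate 1, -0.21 without replicate 2 and -0.24 without KO LPS replicate 1, and Fasn at -0.18 without WT LPS replicate 3 and -0.24 without KO LPS replicate 1. Lss was at 0.30 without WT LPS replicate 1, 0.33 without replicate 3, 0.35 without KO LPS replicate 1 and 0.29 without replicate 2. Mylip lost its call without WT PBS replicate 1 or 2 or KO PBS replicate 1 or 2, which leave its size as it was, and was at -0.19 without WT LPS replicate 1, -0.19 without replicate 2 and -0.23 without KO LPS replicate 1. Nsdhl lost its call without WT PBS replicate 1 or 2 or any 1 of the 6 LPS arrays, with values from 0.35 to 0.46. For 25 of the 40 genes (62.5%) the KO and WT arrays did not overlap after LPS, beside 58.4% of all tested genes. After LPS 5 of 10 B-cell, 4 of 8 T-cell and 3 of 8 mast-cell markers were also lower in KO cells, beside 19.5% of all tested genes. In these lists 1 T-cell marker was higher, and of the 12 macrophage markers 3 were higher and 1 lower. The part of other cells in these differences was not tested.

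**Figure D4:**
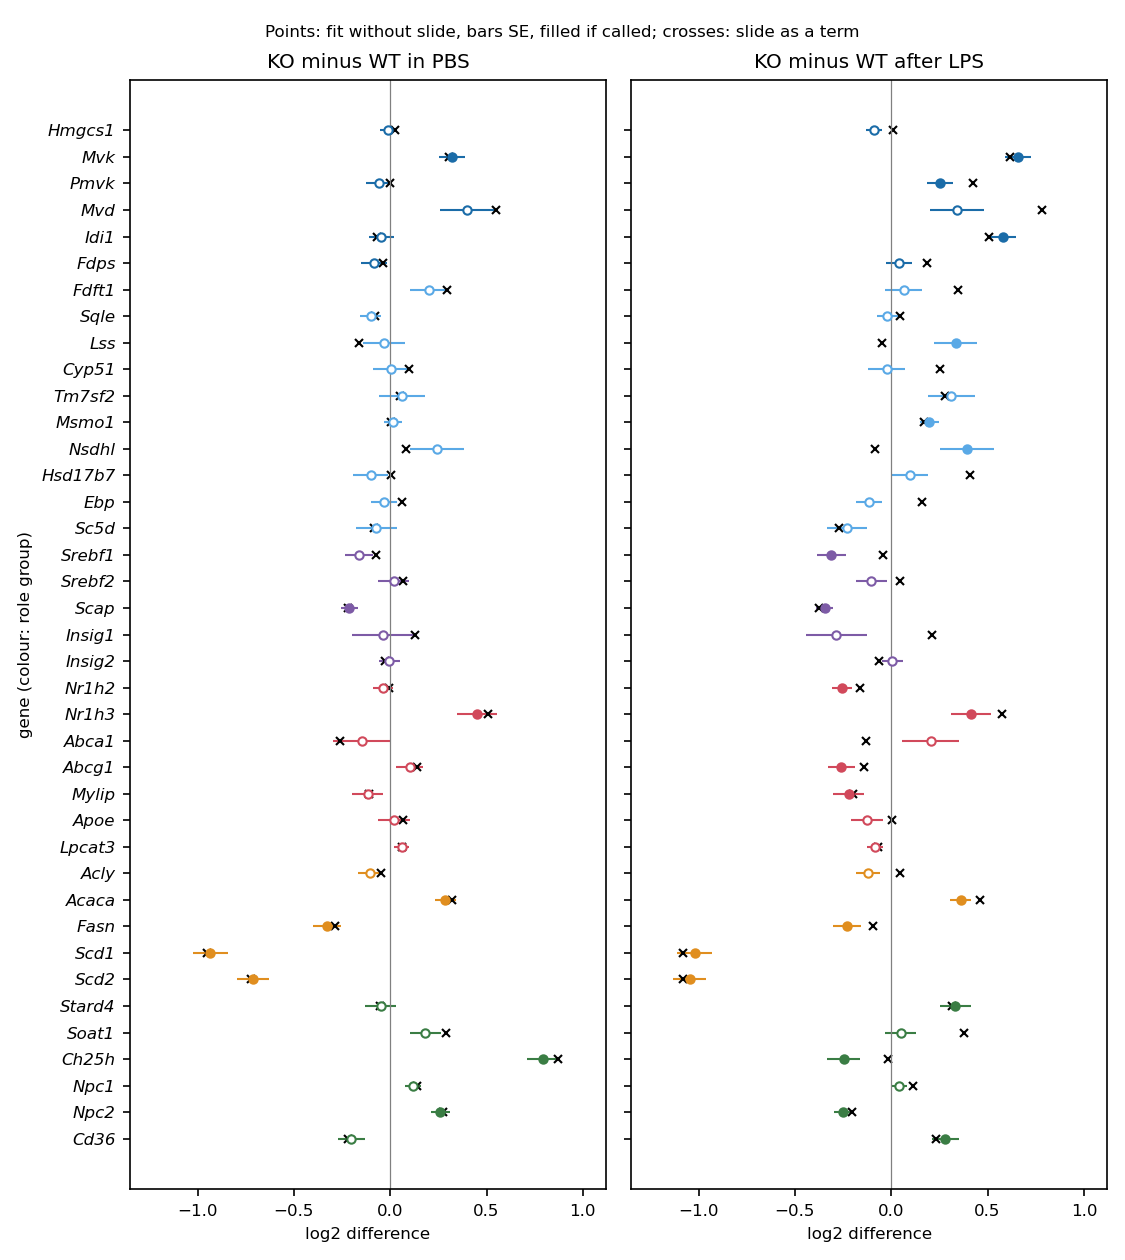
KO minus WT difference (log2) of the 39 genes well above background on all arrays, in PBS (left) and after LPS (right), with points and SE bars from the fit without slide, filled where adjusted p was below 0.05, and crosses for the fit with slide as a term. Scd1 and Scd2 are the leftmost points in both panels, and on the right the crosses of Lss, Nsdhl, Srebf1 and Ch25h lie at or near 0.

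Other genes of the same pathways were read from a list of 87, of which 80 were tested. With LPS 32 of them fell and 17 rose in WT cells, 40% and 21.2%, and 32 fell and 16 rose in KO cells, 40% and 20.0%. Over all tested genes 31% fell and 33.7% rose in WT cells, and 32% fell and 35.1% rose in KO cells. Among 13 further genes of sterol synthesis and uptake 5 fell and 2 rose in WT cells, and 7 fell and 1 rose in KO cells. Acss2, which makes acetyl-CoA from acetate, fell by 1.48 ± 0.15 in KO cells, where all LPS arrays were well above background. In WT cells 1 of the 3 LPS arrays was, and the fitted difference of -1.58 ± 0.15 rests in part on signals that were not well above background. Acat1, the mitochondrial acetoacetyl-CoA thiolase, fell by 0.61 ± 0.08 in WT and 0.50 ± 0.08 in KO cells.

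Of 10 genes that process SREBP, 1 fell and 2 rose in WT cells, with the same counts in KO cells. Lpin1, a phosphatidate phosphatase that also restrains SREBP in the nucleus, was called lower in both (adjusted p = 0.000499 and 8.26e-05). In each genotype 3 of 3 PBS and 1 of 3 LPS arrays were well above background for Lpin1. It entered the tests only through the PBS groups, where it is high, so these p-values give no separate support. Fbxw7, which marks nuclear SREBP for breakdown, rose by 0.17 ± 0.04 in WT cells and changed by 0.05 ± 0.04 in KO cells. Of 19 further LXR pathway genes, 10 fell and 3 rose in WT cells, and 9 fell and 1 rose in KO cells. The lipid transporter Abca7 fell by 0.91 ± 0.07 and 0.90 ± 0.07, and Mertk, a receptor for dead cells, by 1.41 ± 0.15 and 1.05 ± 0.15. Rxra, the nuclear receptor that pairs with LXR, named after its values were seen, fell by 0.77 ± 0.08 and 0.72 ± 0.08.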

How the data were processed

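Total RNA of 12 samples was labelled with Cy3 and hybridised to one-colour arrays, per the labels. The deposited files hold spot intensity and quality columns written by Agilent Feature Extraction (11.5.1.1 in the submitters' processing notes), whose processed signal, per the file headers, is already background-corrected. Groups and replicate numbers came from the sample titles. From the deposited intensity, log2 of the processed signal minus the array's 75th percentile was taken. Of 56605 probes, 32994 matched a RefSeq transcript, giving 22911 symbols. A probe well above background on all 3 arrays of a group was kept, and the probe with the highest mean stood for its gene, which left 13283 genes. Limma 3.58.1 under R 4.3.3 fitted a mean per group over all 12 arrays with a variance trend, two-sided, with Benjamini-Hochberg adjustment. The number of arrays limits the precision. Lower bounds on folds used the lowest signal well above background on each array.

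The members, the lists and the tests were chosen with earlier results of these data known. All listed genes could be named, and some items are not reported here. Those with the value of every array were the genes called for the interaction and, per role, up to 3 called with the largest LPS change. Others so given are said to have been chosen after their values were seen. The marker lists also named T cells (9 of 10 on the array, 7 on all 12 arrays above background), neutrophils (3 of 8 above background on no array), mesothelium and fibroblasts (6 of 9 on none) and fat cells (6 of 8 on none). Alternatives were quantile normalization, another percentile, normexp (offset 50) on the median signal, since the files hold no mean signal column, no filter, other probes of a gene, no variance trend, slide, replicate number as a block, the compared groups alone, slide 1 alone, and each array left out. Of the 40 genes 17 had several kept probes, with 0 opposite calls. The fit was checked on simulated arrays in which 200 genes were changed.

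Pairing by replicate number was checked by correlating the residuals of equal numbers. For LPS in WT these were 0.105, 0.371 and 0.481, all above 0.1, so the blocked value is given where it changes a call. WT PBS replicate 1 nevertheless correlated best with another number. For LPS in KO they were low, at 0.04, 0.113 and 0.081, though each was the best match of its number. With the block 25 rather than 23 genes fell in KO cells, and Cyp51 passed (adjusted p = 0.047). For KO against WT in PBS they were -0.042, -0.068 and -0.102, which do not pair the arrays.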

Additional observations from a re-analysis of the deposited data

Results flagged for a closer look

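For 4 of these genes the test of the difference between the genotypes' responses to LPS passed the threshold in limma. Ch25h rose less in KO cells, with an interaction of -1.04 ± 0.12 (adjusted p = 0.000268). Npc2, which rose in WT cells, had an interaction of -0.51 ± 0.07 (adjusted p = 0.00105). Idi1, which rose in KO cells, had one of 0.63 ± 0.09 (adjusted p = 0.00208). Cd36 fell less in KO cells, with 0.48 ± 0.10 (adjusted p = 0.0159). Each group held 3 arrays, too few to test for single arrays that stand apart.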

How the results depend on the processing

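Of the 29 genes called for LPS in WT cells 22 kept their call under every alternative, as did 22 of 29 for LPS in KO cells, 3 of 9 for KO against WT in PBS (Ch25h, Scd1 and Scd2), 4 of 20 after LPS and 3 of 4 for the interaction (Ch25h, Npc2 and Idi1). With single arrays left out, the counts higher and lower ranged from 6 to 7 and 20 to 22 for LPS in WT, were 6 and ranged from 22 to 26 for LPS in KO, ranged from 4 to 8 and 4 to 6 for KO against WT in PBS, 8 to 11 and 6 to 11 after LPS, and 1 to 5 and 2 to 7 for the interaction. After LPS, 5 genes were higher in KO cells with the mean of all kept probes, 5 with the second brightest probe and 5 with slide as a term, and 3 were lower with slide as a term. In PBS, 3 were higher with the mean of all kept probes, 3 with the second brightest probe and 8 with slide as a term, and 2 were lower with only the groups compared and 2 with only slide 1. With the replicate number as a block, 1 was higher and 2 lower in PBS, where the numbers do not pair the arrays, 7 rose and 25 fell for LPS in WT, and Abcg1 gained a downward interaction call (adjusted p = 0.00462); the block changed no other call for LPS in WT than those of Mvd, Cyp51 and Insig1. Over all genes in PBS, 142 were higher and 74 lower with the block, 499 and 300 with only the groups compared and 541 and 260 with only slide 1, and after LPS 345 and 431 with slide as a term. Directions turned for KO against WT after LPS in Lss (-0.34 on the second probe, -0.046 with slide), Msmo1 (-0.10), Nr1h2 (0.19) and Soat1 (-0.41) on the second probe, and in Nsdhl (-0.086 with slide). They turned under quantile normalization for LPS in KO in Lpcat3 (-0.11) and Npc2 (-0.15), and for LPS in WT in Lpcat3 (-0.020) and Nr1h2 (-0.21). The cause was not tested. Of the 40 genes, Dhcr7 alone was not well above background on every array. Normexp background correction also changed the size of values of some other genes. The LPS falls of Tm7sf2 went from -0.87 to -0.54 in WT and from -0.62 to -0.39 in KO cells, both still called. For KO against WT after LPS, Nsdhl went from 0.40 to 0.21 and lost its call (adjusted p = 0.0799), while Acaca went from 0.36 to 0.49.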

Other observations

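Fatty acid genes outside the list moved both ways with LPS. Of 18 tested, 5 rose (27.8%) and 6 fell (33.3%) in WT cells, and 8 rose (44.4%) and 4 fell (22.2%) in KO cells. The shares of all tested genes were 33.7% and 31% in WT cells and 35.1% and 32% in KO cells. Acsl5, which activates fatty acids with coenzyme A, rose by 0.88 ± 0.06 in WT and 0.74 ± 0.06 in KO cells. Me1, the malic enzyme that supplies NADPH for lipid synthesis, fell by 1.19 ± 0.09 and 0.90 ± 0.09. Dgat2, which makes triglyceride and is named after its values were seen, rose by 1.30 ± 0.15 and 1.67 ± 0.15. In PBS, KO cells had 3 of these 18 genes higher (16.7%) and 2 lower (11.1%), beside 8.06% and 6.05% of all tested genes. Acsl1 was higher by 0.49 ± 0.08 and Acsl5 by 0.38 ± 0.06.

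Of 20 further genes of sterol storage and traffic, 10 fell and 5 rose in WT cells, and 11 fell and 4 rose in KO cells. Plin3, a lipid droplet coat gene, fell by 1.04 ± 0.06 and 0.95 ± 0.06, and Gramd1a, which moves sterol from the plasma membrane, rose by 0.96 ± 0.06 and 1.10 ± 0.06. In PBS, 5 of the 20 were higher (25%) and 1 lower (5%) in KO cells, beside 8.06% and 6.05% of all tested genes. Cyp7b1, which breaks down the product of Ch25h, was at least 2.35-fold higher (adjusted p = 0.00412), being well above background on all 6 KO and 0 WT arrays. Cyp7b1 entered the tests only through the KO groups, where it is high, so its p-value gives no separate support. It is among the 5 counted as higher. Gpr183, the receptor for the further product, was lower at -0.43 ± 0.07 (adjusted p = 0.00191). The interaction passed in limma for 3 of the 80 other pathway genes, 3 downward (3.75%) and 0 upward. Over all tested genes 3.39% were called downward and 0.926% upward, so the downward share is near that of all genes. The 3 were Stard3 (-0.63 ± 0.08), Apoc2 (-0.50 ± 0.12) and Ncoa1 (-0.33 ± 0.07).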
